A study of Mus musculus with 12 samples.

Results

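The Serpina cluster protease inhibitors are 10 genes of mouse chromosome 12, namely Serpina1a, Serpina1b, Serpina1c, Serpina1d, Serpina1e, Serpina3k, Serpina3m, Serpina3n, Serpina6 and Serpina10. They were chosen by gene symbol from the 25033 entries of the Ribo-seq table, and all 10 were found there. In Ribo-seq the stretches of mRNA covered by ribosomes survive nuclease treatment and are sequenced, and each read is the footprint of 1 ribosome. The livers came from male C57BL/6 mice aged 16 weeks, fed from an age of 8 weeks and for 8 weeks on a high-fat diet (HFD, n = 3 libraries) or on that diet containing 0.33% (w/w) lycopene (LYC, n = 3 libraries). Lycopene, a carotenoid of tomatoes, is named in the sample titles and the series design, whereas the treatment label of LYC names only the high-fat diet. The labels state that RNA or footprints of a group were pooled before the libraries were made. The sample titles number 3 replicates per group, so the p-values measure the spread between these libraries. The livers are bulk tissue, in which fewer cells of a type and less RNA per cell cannot be told apart.

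Serpins are secreted or cellular proteins that present an exposed reactive centre loop as bait. A protease that cuts the loop is carried across the serpin and trapped, so each molecule acts as a single-use inhibitor, and the residues of the loop decide which protease is caught. Hepatocytes secrete the serpins of clade A into plasma in large amounts. The Serpina1 genes encode the mouse alpha-1-antitrypsins, inhibitors of neutrophil elastase in their best known form. The Serpina3 genes are relatives of human alpha-1-antichymotrypsin and kallistatin. Serpina6 encodes corticosteroid-binding globulin, which carries glucocorticoids and inhibits no protease. Serpina10 encodes the protein Z-dependent inhibitor of coagulation factor Xa.

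The members lie in a tandem array from Serpina10 at chr12:103616675-103631490 to Serpina3n at chr12:104406646-104414334 (RefSeq annotation of GRCm38.p6). Serpina6, Serpina10 and the 5 Serpina1 genes are on the minus strand and the 3 Serpina3 genes on the plus strand. The RefSeq transcript used for each of the 10 has 5 exons. The coding sequences of Serpina1a to Serpina1e are 1242 bases long each and were 96.3% to 98.5% identical in pairs, with 86 variable positions in all. Those of Serpina3k, Serpina3m and Serpina3n were 82.7% to 91.6% identical. The 60 bases in which the members of each subfamily differ most are shown because reads are most easily told apart there. Some reads within them still fit several members. The 3′ part is the same in Serpina1a and Serpina1b, and the 5′ part is the same in Serpina3k and Serpina3m. In the Serpina1 genes they are bases 1101 to 1160 of the coding sequence, in exon 5, and hold 18 of the variable positions. The corresponding stretch of the Serpina3 genes is also in exon 5 and holds 26 variable positions. Both stretches lie close to the 3′ end of the coding sequence, the part that encodes the reactive centre loop in serpins. Capitals mark the positions at which the genes of a subfamily differ, and all are written 5′ to 3′ on the coding strand from RefSeq GRCm38.p6.
Serpina1a: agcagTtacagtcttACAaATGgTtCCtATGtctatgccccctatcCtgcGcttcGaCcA
Serpina1b: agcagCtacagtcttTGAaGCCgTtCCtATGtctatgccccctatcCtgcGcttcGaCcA
Serpina1c: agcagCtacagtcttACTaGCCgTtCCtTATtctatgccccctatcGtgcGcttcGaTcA
Serpina1d: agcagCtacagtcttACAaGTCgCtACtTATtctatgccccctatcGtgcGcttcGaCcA
Serpina1e: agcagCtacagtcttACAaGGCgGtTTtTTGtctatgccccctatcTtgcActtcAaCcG
Serpina3k: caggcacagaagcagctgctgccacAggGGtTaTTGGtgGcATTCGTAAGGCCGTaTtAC
Serpina3m: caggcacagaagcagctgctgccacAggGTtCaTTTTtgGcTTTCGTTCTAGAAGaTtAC
Serpina3n: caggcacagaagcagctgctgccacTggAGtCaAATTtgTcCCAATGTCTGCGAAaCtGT

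The stretches of Serpina1a, Serpina1c and Serpina1e lie at chr12:103853757-103853816, chr12:103895094-103895153 and chr12:103947100-103947159. Those of Serpina3k and Serpina3m lie at chr12:104345267-104345326 and chr12:104393767-104393826. Outside such stretches a read often fits several members. Of all windows of 28 bases, about the length of a footprint, in the coding sequence of Serpina1a, 12.2% occurred in no other gene of the cluster, and 79.2% were shared with Serpina1c. The share found in a single gene was 36.0% for Serpina1b, 15.7% for Serpina1c, 31.7% for Serpina1d and 39.1% for Serpina1e. It was 63.8% for Serpina3k, 53.7% for Serpina3m and 61.3% for Serpina3n, with 31.8% of the Serpina3k windows also present in Serpina3m. Serpina3m shared 13.3% of its windows with Serpina3c, and Serpina3n shared 11.9% with Serpina3f and 10.2% with Serpina3g, genes outside the members. Serpina6 and Serpina10 shared no window with another gene of the cluster. How the deposited processing placed reads that fit several genes is not given in the sources used here, so the levels of single Serpina1 and Serpina3 genes are uncertain and the sums over the members of each subfamily are given beside them. The Serpina3 sum, of Serpina3k, Serpina3m and Serpina3n, does not cover reads shared with other Serpina3 genes.

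Library totals recovered from the deposited values were 834410 to 4405541 reads in HFD and 311050 to 412116 reads in LYC, so depth and diet cannot be told apart. The deposited RPKM are reads scaled to gene length and library size, and a single read on a 1 kb gene gave 0.227 to 1.2 RPKM in HFD and 2.43 to 3.21 RPKM in LYC. The table labelled RNA-seq was found to hold the same libraries. For genes with at least 50 reads, 74.9% to 81.8% of its counts fell within 5% of the recovered Ribo-seq reads of 1 matching library, against 0 to 10.2% for the other pairs. Ribo-seq libraries HFD1, HFD2 and HFD3 matched the columns labelled HFD3, HFD1 and HFD2, and LYC1, LYC2 and LYC3 matched the columns of the same name. That table is therefore treated as a second assignment of the same reads and not as a separate measure of mRNA. No translational efficiency was computed. The match cannot show whether the reads behind both tables are footprints or mRNA. They are called footprints after the label of the Ribo-seq libraries. The summed level of the 6 defining hepatocyte markers was 38246 to 42286 RPKM in HFD and 26500 to 35591 RPKM in LYC. Alb made up 25585 to 29641 RPKM of it in HFD and 13379 to 22447 RPKM in LYC. Hnf4a, also among them, measured 43.9 to 117 RPKM over the 6 libraries.

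The members drew 1.39% to 2.00% of the reads of an HFD library and 1.41% to 2.04% of a LYC library. By RPKM of the Ribo-seq table Serpina1a ranked highest of the members in both groups and Serpina10 lowest. The upper ranks depend on how reads were assigned to paralogs. Per base of gene length in the second assignment, Serpina3k ranked first in 5 of 6 libraries and Serpina1a in 1 (HFD2), while Serpina10 remained last in all 6. In HFD the mean RPKM fell from Serpina1a (4147 ± 512, SD, n = 3) through Serpina3k (2163 ± 901), Serpina1b (917 ± 14.7), Serpina1c (857 ± 60.6), Serpina1d (625 ± 20.2), Serpina3m (605 ± 263), Serpina1e (446 ± 336), Serpina3n (124 ± 41.6) and Serpina6 (93.5 ± 30.1) to Serpina10 (54.3 ± 8.04). The ranges of neighbours overlapped in HFD from Serpina1d down to Serpina6. In LYC Serpina3m was the third by this scale, at 1155 ± 108 RPKM (SD, n = 3), and its range overlapped that of Serpina1b below it but not that of Serpina3k above it.

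**Figure D1:**
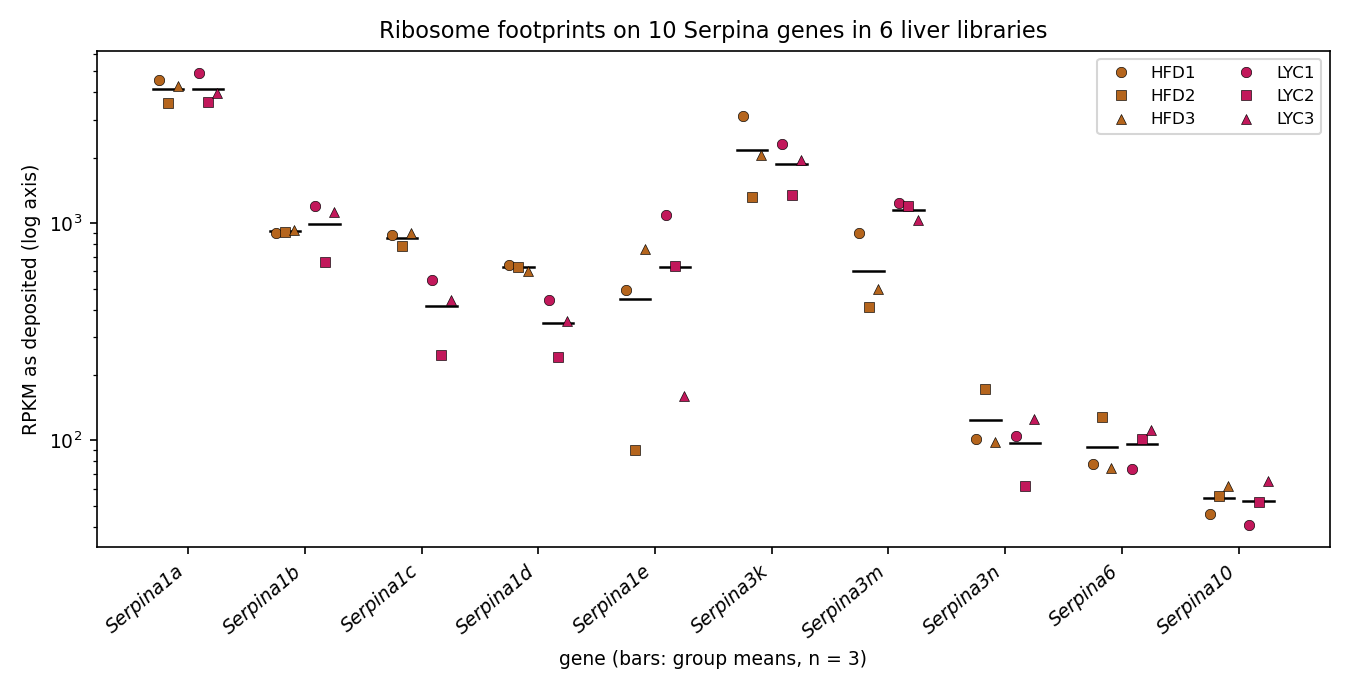
RPKM of the 10 members in each Ribo-seq library on a log axis, with HFD in brown, LYC in pink, a marker shape for each replicate and bars at the group means (n = 3). The Serpina3m points of LYC, from 1033 to 1235 RPKM, all sit above those of HFD, from 412 to 905 RPKM, whereas the Serpina1e points spread widely within both groups.

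Whether lycopene feeding altered footprints on the cluster was asked by comparing LYC with HFD. Of the 10 members, Serpina3m passed the limits for a call and was higher in LYC. These limits were a log2 fold change over 1 in either direction together with p under 0.01, before adjustment, in limma's two-sided test. No member was called lower. Over all 5775 genes tested 13.3% were called, 7% higher and 6.3% lower, so 1 of 10 members is close to the background. After scaling between libraries the groups did not overlap for 1 of 10 members, Serpina3m, against 37.7% of all genes. In this limma fit no member reached an adjusted p below 0.05, against 11.5% of all genes, and Serpina3m was the 1 member with an unadjusted p below 0.05. Its adjusted p was 0.0264 with edgeR and 0.0113 with DESeq2 on recovered reads. In limma fits that left out a library it was 0.0265 to 0.185. All 10 members passed the filter on low reads. Their median log2 fold change was 0.26, beside -0.10 over all genes tested, with 7 members above 0 and 3 below. Without the scaling between libraries Serpina3k and Serpina10 also stood below 0, at -0.16 and -0.06, beside a median of -0.36 over all genes.

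**Figure D2:**
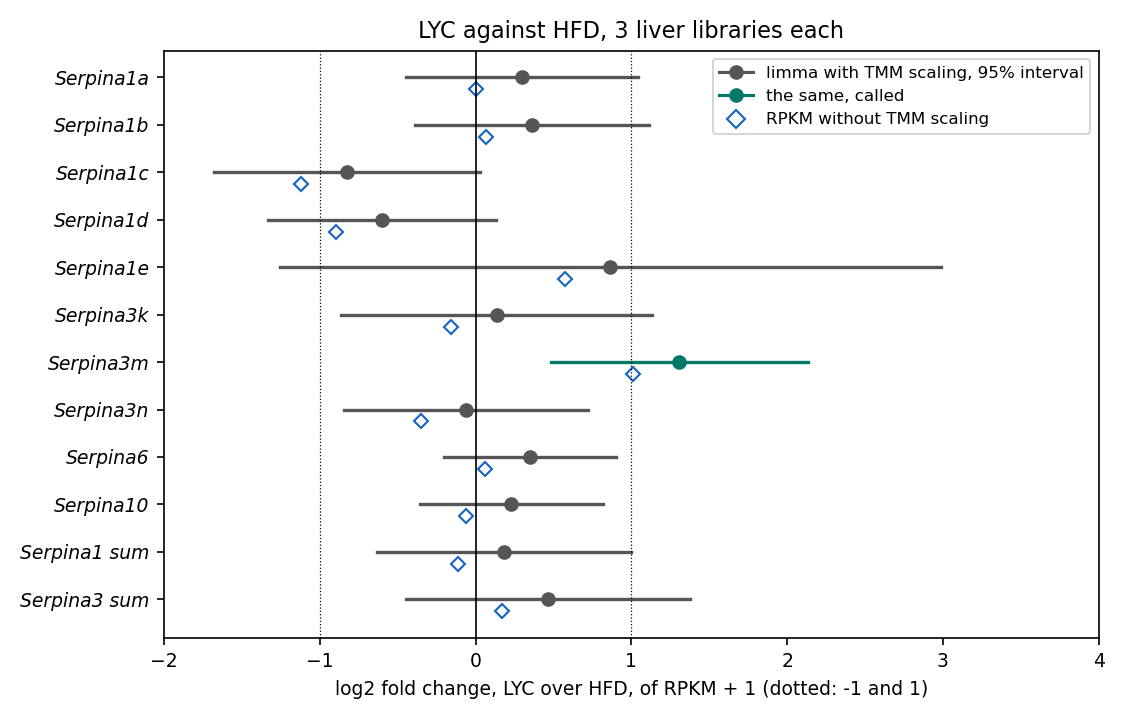
Log2 fold change of LYC over HFD for each member and both subfamily sums, with filled points and lines for limma's estimate and its 95% interval after scaling between libraries and open diamonds for RPKM without that scaling. The interval of Serpina3m, from 0.48 to 2.13, is the only one of the 12 that leaves out 0, and each diamond lies to the left of its filled point.

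Serpina1a, an alpha-1-antitrypsin gene, measured 4562, 3575 and 4304 RPKM in HFD and 4900, 3605 and 3988 RPKM in LYC. The groups overlapped throughout, and the log2 fold change was 0.30 (SE 0.33, limma, adjusted p = 0.573). It was 0.03 without HFD2, 0.46 without LYC2 and 0.0017 without the scaling between libraries. Serpina1b measured 904, 913 and 933 RPKM in HFD and 1196, 663 and 1120 RPKM in LYC. The HFD libraries lay within 1.03-fold of each other while the LYC libraries spanned 1.80-fold on either side of them, and the log2 fold change was 0.36 (SE 0.33, limma, adjusted p = 0.488).

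Serpina1c had 886, 787 and 898 RPKM in HFD and 548, 248 and 445 RPKM in LYC, and Serpina1d had 644, 628 and 604 RPKM against 445, 241 and 353 RPKM. For both genes every LYC library lay below every HFD library as deposited. With Serpina3m, 3 of 10 members did not overlap on this scale, against 37.4% of all genes tested, of which 27.5% were lower and 9.87% higher. Neither gene passed the test. The log2 fold change was -0.83 for Serpina1c (SE 0.37, limma, adjusted p = 0.178) and -0.60 for Serpina1d (SE 0.32, limma, adjusted p = 0.244). Without LYC2, the lowest library for both, these were -0.43 and -0.29. The order also depended on the scaling between libraries by the trimmed mean of M-values (TMM). After it Serpina1c stood at 849, 623 and 871 in HFD against 685, 247 and 486 in LYC, so that LYC1 exceeded HFD2. Without it Serpina1c passed the limits at a log2 fold change of -1.12 (limma, adjusted p = 0.0441). It was then the 1 member of 10 called, while 15.3% of all genes were called in that setting, 4.07% higher and 11.3% lower. Leaving out the scaling moved the median over all genes by -0.26 on the log2 scale, and relative to that median Serpina1c stood at -0.73 with it and at -0.76 without it.

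Serpina1e varied most within the groups, with 490, 90.6 and 758 RPKM in HFD and 1093, 632 and 161 RPKM in LYC. The highest library exceeded the lowest 8.36-fold among the HFD libraries and 6.80-fold among the LYC libraries, against at most 2.36-fold in HFD and 2.21-fold in LYC for the other members. HFD2 and LYC3 were low. The second read assignment put both of these libraries lowest in their groups too, at 10.5% and 8.65% of the summed Serpina1 level against 15.9% to 19.0% in the other 4 libraries. The log2 fold change of 0.87 had a 95% interval of -1.26 to 2.99 (limma, adjusted p = 0.563), and it was -0.21 without HFD2.

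Summed over Serpina1a to Serpina1e, the alpha-1-antitrypsin genes measured 7486, 5994 and 7497 RPKM in HFD and 8182, 5389 and 6068 RPKM in LYC. The highest and the lowest of the 6 values were both LYC libraries. The means were 6992 ± 865 and 6546 ± 1457 RPKM (SD, n = 3), a ratio of 0.936 (two-sided exact permutation p = 0.9, where 0.1 is the smallest that 3 against 3 allows). In the fit across all genes the log2 fold change of the sum was 0.19 with a 95% interval of -0.63 to 1.00 (limma, adjusted p = 0.765). As folds, that interval spans 0.646 to 2.00. The sign of the estimate was not stable, at -0.11 without TMM scaling, -0.05 without HFD2 and -0.09 without LYC1.

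The division of this sum between paralogs does not depend on the scaling between libraries. The Serpina1c share was 11.8%, 13.1% and 12% in HFD against 6.70%, 4.61% and 7.33% in LYC. The Serpina1d share was 8.61%, 10.5% and 8.06% in HFD and 5.44%, 4.47% and 5.82% in LYC. Both shares were lower in every LYC library than in every HFD library, each with a two-sided exact permutation p = 0.1, the smallest the design allows, among 8 shares tested. The shares of Serpina1a (59.3% ± 1.78 in HFD and 64.2% ± 3.75 in LYC, SD, n = 3), Serpina1b and Serpina1e overlapped between the groups. The RPKM of Serpina1a are scaled to a length of 1939 bases, against 1373 to 1442 bases for the other 4 genes, although all 5 coding sequences have 1242 bases. Counted in reads, Serpina1a took 66.6% ± 1.6 of the Serpina1 sum in HFD and 71.0% ± 3.34 in LYC (SD, n = 3).

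The second assignment of the same reads kept the Serpina1 sum and divided it otherwise. Its summed count was 0.233% to 2.72% above the recovered reads of the matching library. For HFD2 the sums were 45746 and 46956 reads. Within them Serpina1a was given 30540 reads in the Ribo-seq table and 14420 in the other, Serpina1c 4940 and 10540, and Serpina1e 548 and 4381. Over the 6 libraries the second table held 0.434 to 0.50 times the Serpina1a reads and 2.13 to 4.83 times the Serpina1c reads of the first. After correction for gene length it gave Serpina1a 23.8% ± 0.808 of the sum in HFD and 27.0% ± 1.65 in LYC (SD, n = 3), and these ranges, 22.9% to 24.5% and 25.5% to 28.7%, did not overlap (two-sided exact permutation p = 0.1). The Serpina1c share was again lower in every LYC library, at 24.4%, 24.4% and 22.8% in HFD and 21.6%, 19.5% and 22.1% in LYC, but the mean difference shrank from -6.10 to -2.80 percentage points. The Serpina1d share overlapped between the groups there, at 15.6% to 18.2% in HFD and 13.6% to 17.5% in LYC. In edgeR's quasi-likelihood test on the second table the log2 fold changes of Serpina1c and Serpina1d were 0.06 (adjusted p = 0.922) and 0.09 (adjusted p = 0.856).

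**Figure D3:**
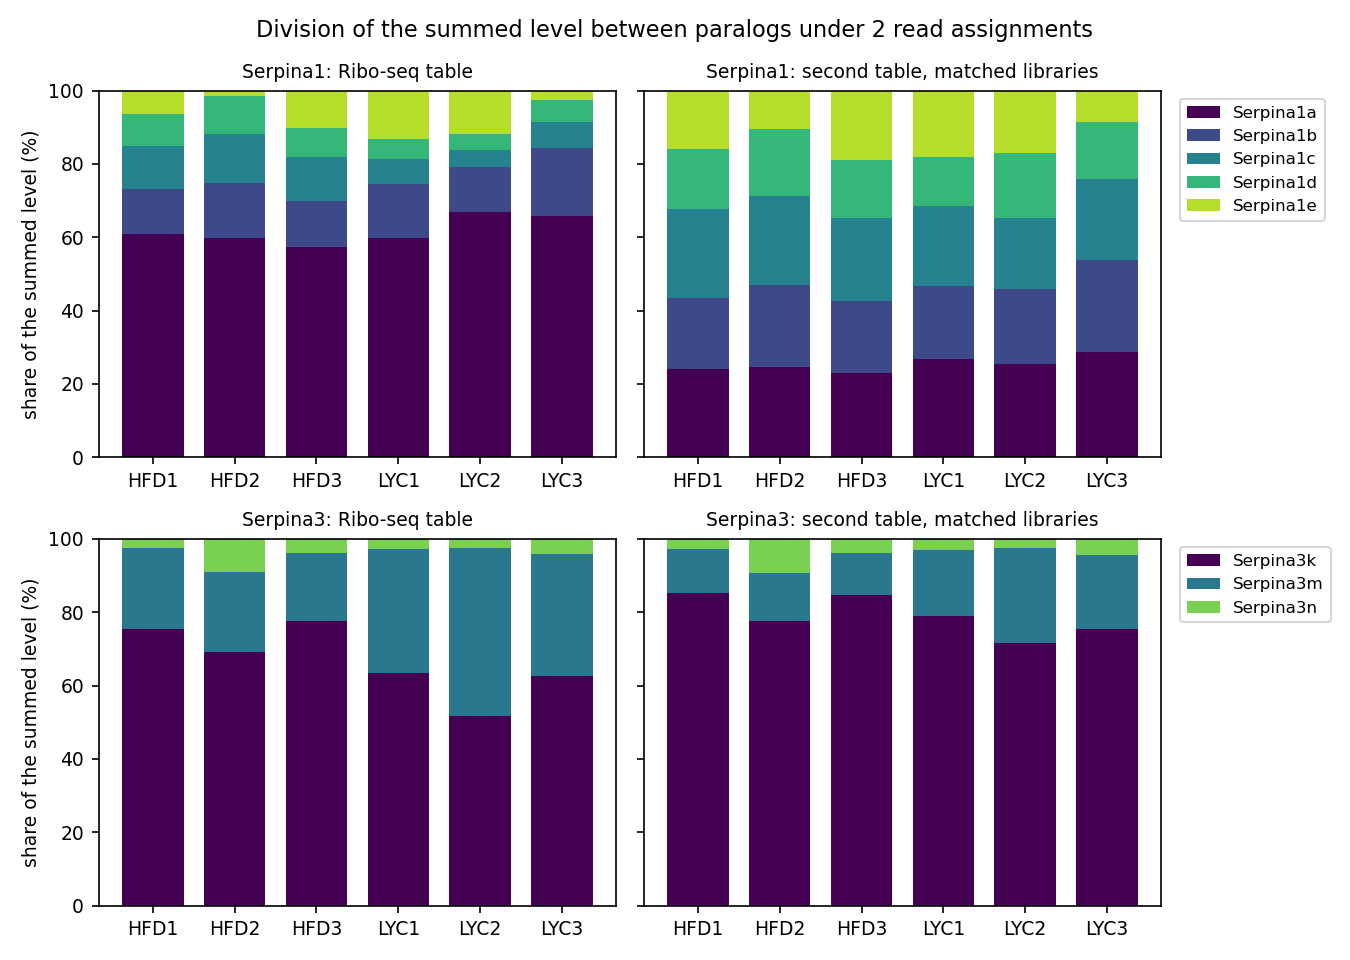
Share of each paralog in the summed level of its subfamily in each library, in percent, from RPKM of the Ribo-seq table (left) and from length-corrected counts of the table labelled RNA-seq in the libraries that match (right). Serpina1a takes 57.4% to 66.9% of the Serpina1 sum in the left panel and 22.9% to 28.7% in the right one, while the wider Serpina3m band of LYC appears in both.

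Among the Serpina3 members, only Serpina3m was called, higher in LYC. It had 905, 412 and 498 RPKM in HFD and 1235, 1198 and 1033 RPKM in LYC, on 689 to 4092 reads in HFD and 618 to 808 reads in LYC. Every LYC library exceeded every HFD library, an order seen in 9.87% of all genes tested. The mean was 1.91 times higher in LYC, and after TMM scaling the log2 fold change was 1.31 (SE 0.36, 95% interval 0.48 to 2.13, limma, adjusted p = 0.0522), with an unadjusted p of 0.00611. HFD1 lay closest to LYC. The call was kept in 1 of 6 fits that left out a library, the one without HFD1, with log2 fold changes of 0.91 to 1.66. The p was 0.0326 without HFD2, 0.0251 without HFD3, 0.0308 without LYC1, 0.0150 without LYC2 and 0.0168 without LYC3 (limma). Without TMM scaling the log2 fold change was 1.01, with an unadjusted p of 0.01002 in limma, just over the limit. Without the filter on low genes the call was also lost, at 1.31 with an unadjusted p of 0.0112.

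Serpina3k, a kallikrein-binding serpin, had 3110, 1316 and 2065 RPKM in HFD and 2317, 1343 and 1952 RPKM in LYC. The groups overlapped, with a log2 fold change of 0.14 (SE 0.44, limma, adjusted p = 0.867) that turned to -0.16 without TMM scaling. Serpina3n, an acute phase serpin that inhibits granzyme B, had 101, 172 and 98.3 RPKM in HFD and 105, 61.7 and 126 RPKM in LYC. The highest and the lowest value came from HFD2 and LYC2, and the log2 fold change was -0.06 (SE 0.34, limma, adjusted p = 0.925). Summed over the 3 genes, the level was 4116, 1899 and 2661 RPKM in HFD and 3656, 2602 and 3110 RPKM in LYC. The groups overlapped, with means of 2892 ± 1126 and 3123 ± 527 RPKM (SD, n = 3, two-sided exact permutation p = 0.9). The log2 fold change of the sum was 0.46 with a 95% interval of -0.45 to 1.38 (limma, adjusted p = 0.469).

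Within the Serpina3 sum, Serpina3m took 22.0%, 21.7% and 18.7% in HFD and 33.8%, 46.0% and 33.2% in LYC. Serpina3k took 75.6%, 69.3% and 77.6% in HFD and 63.4%, 51.6% and 62.8% in LYC. Neither pair of ranges overlapped, and each had a two-sided exact permutation p = 0.1, the smallest possible. These results are not independent. Serpina3n took only 2.37% to 9.03% of the sum, so a higher Serpina3m share goes with a lower Serpina3k share. The difference in the Serpina3m share was 16.9 percentage points, and 12.7 to 19.1 points when a library was left out. The second assignment gave Serpina3m 0.552 to 0.644 times the reads and Serpina3k 1.16 to 1.43 times. There Serpina3m took 12.1%, 13% and 11.3% of the sum in HFD and 18.1%, 25.7% and 20.4% in LYC, again without overlap. The Serpina3k share overlapped there, at 77.7% to 85.1% in HFD and 71.7% to 78.9% in LYC.

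**Figure D4:**
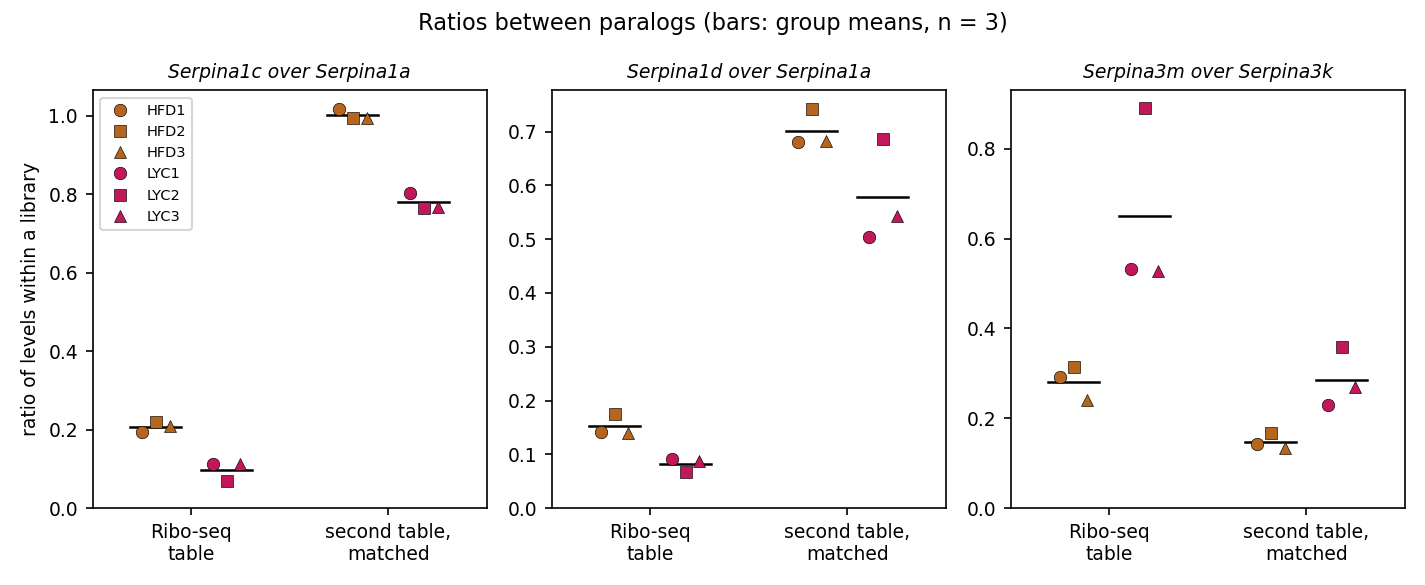
Ratio of the levels of pairs of paralogs within each library, with the Ribo-seq table on the left of each panel and length-corrected counts of the table labelled RNA-seq, in the libraries that match, on the right. The ratio of Serpina3m to Serpina3k averages 0.282 in HFD and 0.651 in LYC in the Ribo-seq table and 0.148 and 0.286 in the other, and the ratio of Serpina1d to Serpina1a overlaps between groups only in the latter.

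The ratio of Serpina3m to Serpina3k was thus 2.31 times higher in LYC by the Ribo-seq table and 1.94 times higher by the second one, without overlap in either. These pairs of paralogs were not planned. The first gene of each had a share that already did not overlap between the groups in the Ribo-seq table. The ratios therefore largely restate the shares and are no separate result. The ratio of Serpina1c to Serpina1a was 0.208 ± 0.0131 in HFD and 0.0974 ± 0.0247 in LYC by the Ribo-seq table and 1.00 ± 0.0126 and 0.779 ± 0.0205 by the second one (SD, n = 3). The groups did not overlap in either, while the level of the ratio differed several-fold between the assignments. In edgeR's test on the second table Serpina3m was the 1 member called, with a log2 fold change of 1.19 (SE 0.32, adjusted p = 0.0158), a call lost in 3 of 6 fits that left out a library, where 16.6% of 5921 genes passed the same limits, 9.31% upwards and 7.33% downwards. The counts come from the same libraries and are no independent support.

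Serpina6 and Serpina10 share no footprint-length sequence with their neighbours, and both tables gave them nearly the same reads. Serpina6, the corticosteroid carrier, measured 77.9, 128 and 74.4 RPKM in HFD and 74.0, 102 and 112 RPKM in LYC. The groups overlapped, and the log2 fold change was 0.35 (95% interval -0.20 to 0.90, limma, adjusted p = 0.369). Serpina10, the factor Xa inhibitor, measured 45.8, 55.3 and 61.8 RPKM in HFD and 41.0, 52.0 and 64.8 RPKM in LYC, on 26 to 43 reads in LYC. The groups overlapped almost fully, and the log2 fold change was 0.23 (95% interval -0.36 to 0.82, limma, adjusted p = 0.578). It was 0.06 without LYC3 and 0.34 without HFD3.

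The counts for related gene lists are to be read against all 5775 genes tested, of which 7% were called higher, 6.3% lower and 55% had a log2 fold change below 0, at a median of -0.10. Those values are from limma. On the recovered reads of the same genes edgeR called 496 higher and 393 lower, and DESeq2 called 509 higher and 388 lower. Of 16 other clade A serpins, 9 passed the filter on low reads, and none was called by limma, edgeR or DESeq2, at a median log2 fold change of 0.25. Serpina3f, at 119, 44.7 and 53.2 RPKM in HFD and 141, 72.7 and 168 RPKM in LYC, and Serpina3i, at log2 fold changes of 1.15 and 1.28, were the 2 with an unadjusted p under 0.05, at 0.0448 and 0.0434 in limma, and were chosen after their values were seen. Among 17 serpins of other clades 5 were tested, and all 5 had a log2 fold change below 0, with a median of -0.55. Serpinf2, alpha-2-antiplasmin, the inhibitor of plasmin, fell from 219, 249 and 249 RPKM in HFD to 74.0, 73.3 and 112 RPKM in LYC (log2 fold change -1.19, limma, adjusted p = 0.0217). Serpinc1, antithrombin, a liver serpin outside the cluster, had 720, 718 and 675 RPKM in HFD and 327, 332 and 442 RPKM in LYC. Every LYC value lay below every HFD value, with a log2 fold change of -0.66 that was not called (limma, adjusted p = 0.112). Whether the cluster differs from these serpins was not tested.

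Among 18 other plasma protease inhibitors tested, 1 was called higher and none lower, and the median log2 fold change was -0.15. Kng1, a kininogen gene, rose from 326, 310 and 274 RPKM in HFD to 1116, 2985 and 1184 RPKM in LYC (log2 fold change 2.67, limma, adjusted p = 0.0027). Its paralog Kng2, named after its values were seen, had 330, 357 and 306 RPKM in HFD and 272, 367 and 394 RPKM in LYC and was not called (log2 fold change 0.34, limma, adjusted p = 0.33). Ahsg (fetuin A, -0.68), Pzp (-0.40) and Ambp (-0.35), each above 1000 RPKM in HFD, were not called. Of the targets and ligands of the members 6 were tested and none was called by limma, edgeR or DESeq2, with 1 at an unadjusted p under 0.05 in limma and a median of -0.12. Elane, the neutrophil elastase that alpha-1-antitrypsin inhibits, named here after its values were seen, was listed at 0 in HFD1 and in all LYC libraries and at 0.247 and 1.30 RPKM in HFD2 and HFD3.

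Genes for the folding, export and degradation of alpha-1-antitrypsin in the endoplasmic reticulum had a median log2 fold change of -0.35 over 18 tested, with 16 below 0. The calls were 2, both lower, against 6.3% of all genes called lower. Syvn1, the ubiquitin ligase of that degradation route, had 45.7, 14.8 and 32.1 RPKM in HFD and 4.38, 6.49 and 4.9 RPKM in LYC (log2 fold change -1.97, limma, adjusted p = 0.0290). Man1b1, a mannosidase that marks misfolded glycoproteins, had 6.96, 10.7 and 11.5 RPKM against 2.03, 0.859 and 3.24 RPKM (log2 fold change -1.63, limma, adjusted p = 0.0378). These LYC levels rest on few reads, as a single read on a 1 kb gene gave 2.43 to 3.21 RPKM there.

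Of 13 transcriptional regulators tested, Nr1h4, the bile acid receptor, was called higher (log2 fold change 1.30, limma, adjusted p = 0.0297) and Foxa2, a forkhead factor of liver genes, lower (-1.53, limma, adjusted p = 0.0362). The median was -0.36. Among 12 acute phase proteins tested the median was -0.40, with 10 below 0. Orm1, orosomucoid, rose from 247, 254 and 262 RPKM in HFD to 521, 380 and 477 RPKM in LYC (log2 fold change 1.13, limma, adjusted p = 0.0291), a call lost without TMM scaling (0.84). Hpx, hemopexin, fell from 2011, 2614 and 2319 RPKM to 695, 749 and 861 RPKM (-1.29, limma, adjusted p = 0.0127). Haptoglobin (Hp, -0.61) and the fibrinogen chains Fgb (-0.46) and Fgg (-0.83), each over 1000 RPKM in HFD, were not called. None of 7 plasma carriers tested was called by limma, edgeR or DESeq2 or had an unadjusted p under 0.05 in limma, at a median of -0.03. Alb (-0.41), Ttr (-0.03), Rbp4 (0.31), Gc (0.02), Apoa1 (0.61), Apoa2 (-0.22) and Apoh (-0.63) each exceeded 1000 RPKM in a group mean.

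The summed markers of other cells were low next to the hepatocyte sum. The summed level of 7 Kupffer cell and macrophage markers was 133 to 195 RPKM in HFD and 93.0 to 191 RPKM in LYC, and that of 5 sinusoidal endothelium markers 49.9 to 69.2 and 19.3 to 118 RPKM. The 6 stellate cell markers summed to 87.9 to 163 and 80.8 to 127 RPKM, and the 5 adipocyte markers to 8.22 to 15.1 and 7.45 to 28.9 RPKM, with Plin1 and Lep at 0. The adipocyte markers were not tested. Of the 6 macrophage, 4 endothelial and 5 stellate cell markers that passed the filter on low reads none was called by limma, with 1 macrophage and 1 endothelial gene at an unadjusted p under 0.05, while edgeR and DESeq2 each called 1 macrophage gene higher, Vsig4. Over all 5775 genes these tools called 496 and 509 higher. The 5 red cell markers summed to 632 to 1433 RPKM in HFD and 847 to 989 RPKM in LYC, with Alas2 called higher (log2 fold change 1.01, limma, adjusted p = 0.0378), a call lost without TMM scaling (0.72). Of the hepatocyte markers Cps1 was called higher (log2 fold change 1.08, limma, adjusted p = 0.0546), also lost without TMM scaling (0.78), and Cyp2e1 was not (0.20). Of 6 neutrophil markers none was tested and Mpo, Ngp and Retnlg were at 0 in all libraries, and the sum was 0.704 to 1.70 RPKM in HFD and 10.8 to 26.7 RPKM in LYC, on 1 to 4 reads per library. The 5 cholangiocyte markers summed to 15.4 to 25 RPKM in HFD and 2.89 to 9.25 RPKM in LYC. None of them passed the filter on low reads, the LYC sums rest on 3, 5 and 7 reads, and Spp1 made up 20.3, 20.1 and 10.3 RPKM of the HFD sums. The part of these cells in the Serpina3m difference was not tested.

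The genes whose pattern over the 6 libraries was most like that of the Serpina1 sum, by Pearson's r on the log2 scale among 5770 genes, were Tspo (r = 0.97), Pcmtd2 (r = 0.96) and Pdia5 (r = 0.94). Tspo, a mitochondrial outer membrane protein that binds cholesterol, had 59.6, 40.6 and 53.2 RPKM in HFD and 59.2, 41.3 and 48.2 RPKM in LYC. As for the Serpina1 sum, HFD2 and LYC2 were the lowest of their groups. The 6 points share their scaling factors, and the ranking is a description.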

How the data were processed

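The titles number 3 HFD and 3 LYC Ribo-seq libraries of mouse liver, and the labels list 6 RNA-seq libraries beside them. Whether a library stands for a single mouse is not settled by the labels. For Ribo-seq the authors used cutadapt and bowtie2 on the reads, then STAR against GRCm38/mm10, and FANSE2 for gene levels, and deposited RPKM. The second deposited table, labelled RNA-seq, holds counts and RPKM from the authors. Versions, annotation release and the handling of reads that fit several genes are not given in the sources used here.

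Reads behind each RPKM were recovered from the steps between values (within 0.03 reads of a whole number), with the gene length of the second table for 11182 of 15749 genes above 0 and a fitted length for 4567. The length of the table gave whole reads for all 10 members. Among the 25033 entries, 26 carried a date in place of a symbol, and the 4 with a repeated name were removed. limma's moderated test with a mean-variance trend, two-sided, was run on log2(RPKM / TMM factor + 1) of the 5775 genes that filterByExpr kept, with Benjamini-Hochberg adjustment over all of them. Fold changes are on this scale. Calls needed a log2 fold change over 1 in either direction and p under 0.01. The paper's methods give a stricter p than its results, and the latter was used. Subfamily sums replaced their members in the same fit. Shares and summed levels were compared by exact permutation over libraries. Counts of the second table entered edgeR's quasi-likelihood test.

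Members and lists were chosen with earlier results of these data known. The genes named are the members, both sums, Serpinc1, list genes called or above 1000 RPKM in a group mean, and the 3 genes most like the Serpina1 sum. A few other list and marker genes were named after their values were seen. Tests were tried on simulated data, where limma found 167 of 176 altered genes with the correct sign and called 35 of 5151 unaltered ones. The altered genes there had a median log2 fold change of 1.90 in limma, beside 1.31 for Serpina3m, the largest of the members. Detection of changes as small as those of the members was not tested. Alternatives were other scalings, pseudocounts, filters and tools, a replicate block and leaving out each library.

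Sequences came from RefSeq GRCm38.p6, aligned with MAFFT 7.526. Library totals limit precision, as 1 read was worth up to 3.21 RPKM on a gene of 1 kb. The other software was Python 3.11.15 with scipy 1.17.1, pandas 2.3.3, matplotlib 3.10.9 and numpy 2.4.6, and DESeq2 1.42.0, edgeR 4.0.16 and limma 3.58.1 in R 4.3.3.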

Additional observations from a re-analysis of the deposited data

How the results depend on the processing

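The number of members called higher in the Ribo-seq table was 1, and 0 without TMM scaling and without a filter on low genes. The number called lower was 0, and 1 without TMM scaling (Serpina1c), where 11.3% of all genes were called lower and 4.07% higher. When a library was left out, 0 to 1 members were called higher and 0 lower. Serpina3m was called in 6 of 8 other alternatives, with adjusted p from 0.0113 to 0.185 over all alternatives. Without TMM scaling the log2 fold change turned to -0.11 for the Serpina1 sum, -0.16 for Serpina3k and -0.0596 for Serpina10. That of Serpina3n turned to 0.0059 with edgeR and 0.0074 with DESeq2. Leaving out a library gave -0.0894 to 0.38 for the Serpina1 sum, 0.07 to 0.77 for the Serpina3 sum, 0.11 to 0.70 for Serpina1b, -1.16 to -0.43 for Serpina1c, -0.90 to -0.29 for Serpina1d, -0.21 to 1.64 for Serpina1e, -0.34 to 0.46 for Serpina3k and -0.28 to 0.30 for Serpina3n. The range was 0.03 to 0.46 for Serpina1a, 0.22 to 0.44 for Serpina6 and 0.06 to 0.34 for Serpina10. With recovered reads in place of RPKM, the LYC less HFD difference of each paralog's share moved by less than the SD pooled over both groups, although the shares themselves moved, as given for Serpina1a. By the second read assignment, an alternative chosen after seeing the data, the difference in share was -2.80 points for Serpina1c, -1.18 for Serpina1d, -7.24 for Serpina3k and 9.24 for Serpina3m. That of Serpina1e turned from 3.19 to -0.54 points, the only change of sign among the 8 paralogs between the 2 assignments. When a library was left out, the difference by RPKM of the Ribo-seq table was 0.92 to 6.49 points for Serpina1e. For Serpina3n it was -3.27 to 0.02 points. Without TMM scaling the number called lower was 1 among other clade A serpins, 2 among other plasma protease inhibitors, 1 among targets and ligands, 4 among folding genes and 3 among acute phase proteins, of which 0 were then called higher, in a setting that moved the calls over all 5775 genes from 364 lower and 404 higher to 651 and 235. The calls of the markers Alas2 and Cps1 were lost, at log2 fold changes of 0.72 and 0.78.

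In the table labelled RNA-seq 1 member was called higher, and 0 to 1 when a library was left out. Serpina3m lost its call there in 3 of 6 such fits, those without HFD1, HFD2 or LYC1 by the labels of that table, with log2 fold changes of 0.91 to 1.59 over the 6. Without a filter the log2 fold change turned to -0.11 for Serpina1c, -0.0788 for Serpina1d, -0.0173 for Serpina1e and -0.16 for Serpina3n. Leaving out a library gave -0.0434 to 0.43 for the Serpina1 sum, -0.25 to 0.28 for Serpina1c, -0.0693 to 0.21 for Serpina1d, -0.40 to 0.48 for Serpina1e, -0.0595 to 0.68 for Serpina3k and -0.18 to 0.30 for Serpina3n. With the replicate block Serpina3n stood at -0.0243 there. The labels give the shared replicate numbers no common source. In the Ribo-seq table, deviations from the group means correlated at 0.11, 0.03 and 0.0073 between HFD and LYC libraries with the same number. With the block in limma that table kept 1 member called higher and 0 lower, with an adjusted p of 0.0249 for Serpina3m. The causes of these changes were not tested. Serpina10 had the fewest reads of the 10 members in each LYC library, 26 to 43.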
